A study of Mus musculus with 19 samples.

Results

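The translation initiation and elongation factors form a list of 44 gene symbols, each matched to 1 Ensembl gene ID among the 39017 genes of every deposited table. Of these, 43 were among the 13926 genes with enough counts to be tested, and the exception was Eif4ebp1. The values come from translating ribosome affinity purification (TRAP), in which a ribosomal protein, L10a, carries a green fluorescent tag and is expressed in 1 cell type, so that the ribosomes of those cells and the mRNA on them can be pulled out of whole tissue. The tissue was the striatum of female mice. Old D1 libraries came from Drd1::EGFP-L10a mice aged 2 years and young D1 libraries from mice of that line aged 42 days. Old D2 libraries came from Drd2::EGFP-L10a mice aged 2 years and young D2 libraries from 42-day-old mice of that line. Both lines are on a background spelled C56BL/6J in the labels, and every mouse carried the tag, the controls of each comparison included. The tag was driven by the dopamine receptor gene Drd1 or Drd2, which mark the D1 and D2 spiny projection neurons of the striatum, and any other cell that uses the same receptor gene would carry it as well. There were 4 libraries in each group, described as biological replicates, and whether a library holds 1 animal or several is not stated in the labels. Another 3 samples hold ribosome footprints of the mouse fibroblast line NIH-3T3 and are not analysed here. Levels are in TPM, a relative abundance that is divided by transcript length and scaled to the same total in each library, so levels of different genes can be set side by side. A gene was called where edgeR's quasi-likelihood test, over all 13926 genes, gave a Benjamini-Hochberg adjusted p under 0.05. Fold changes come from counts that are not divided by transcript length, so they can differ from TPM in size and in sign.

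Translation of an mRNA begins when eIF2, a GTP-binding complex, brings the initiator tRNA to the small ribosomal subunit, where eIF3, a large complex of many subunits, serves as the platform. eIF4E binds the cap of the mRNA, eIF4G bridges it to eIF3, and eIF4A, an RNA helicase, opens the leader so that the subunit can scan for the start codon, with eIF1 and eIF5 guarding the choice and eIF5B joining the large subunit at the end. Elongation then needs eEF1A, which delivers each aminoacyl tRNA, its exchange factors of the eEF1B complex, and eEF2, which moves the ribosome along by a codon. In neurons, much of the control is placed on eIF2, on the binding of eIF4E by the 4E-BPs and on eEF2 through its kinase, and adult neurons carry a second form of the elongation factor, eEF1A2, beside eEF1A1.

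Many mRNAs of the translation machinery carry a 5′ terminal oligopyrimidine (TOP) tract, a run of C and T bases at the start of the message through which mTOR signalling controls their translation. RefSeq start sites (GRCm38.p6) were at hand for 34 of the 44 genes, with 45 start sites in all. A window of 30 bases, 10 before and 20 from the start on, was searched on the coding strand for an unbroken run of at least 7 C or T bases, anywhere in the window. Such a run stood at 8 of the 45 start sites, 17.8%, and at 17.9% of the 32851 start sites of all genes, so it was about as frequent per start site. A run was counted wherever it lay, before the start included, and was cut at the end of the window. The count is thus of such runs and not of TOP tracts, and whether the members are rich in TOP tracts was not tested. Genes with several starts, such as Eif5a, Eif4e2 and Eef2k, count more than once. By gene, 8 of the 34 held a run, and no share by gene is given for all genes. Eif2b3, Eif3e, Eif3h, Eif3i, Eif4g2, Eif6, Eif4ebp1, Eef1d, Eef1g and Pabpc1 had no start site at hand, so the comparison does not cover them. The windows below belong to the genes that the results turn on, Eif5b, Eif2s2, Eif3a and Eif4a1 among those called with age, to Eif3f and Eif3k, which were called and hold a run, to the 3 starts of Eif5a that match the isoforms described further on, and to the elongation factors Eef1a1 and Eef2. They are written 5′ to 3′ in lower case, and capitals mark the longest run where it reaches 7 bases.
Eif5b, chr1:37998000-37998029, plus strand: ctgggttcccacctggccggcggctctact
Eif2s2, chr2:154892887-154892916, minus strand: aaggttggctttactgtacgcctgcgcttt
Eif3a, chr19:60790674-60790703, minus strand: ctcgggcggcggcgctgccgccgcgaggga
Eif4a1, chr11:69672404-69672433, minus strand: gtaacgtcacgtcgagttgcagagcgccgg
Eif3f, chr7:108934405-108934434, plus strand: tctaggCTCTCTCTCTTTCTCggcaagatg
Eif3k, chr7:28981869-28981898, minus strand: aaccggcgctggtgctgaaagcgCCTTTCC
Eif5a, near the start of isoform 209, chr11:69920928-69920957, minus strand: ttggagcgacgcagggcgggggacggcgag
Eif5a, start of isoform 213, chr11:69921066-69921095, minus strand: cgggggtcggggaggggggcagaagggagc
Eif5a, start of isoform 210, chr11:69921367-69921396, minus strand: cttgcgcagtgcgggggtggaaggtggtgg
Eef1a1, chr9:78481705-78481734, minus strand: ctccgCCCTCTTCCCgagggtgggggagaa
Eef2, chr10:81176621-81176650, plus strand: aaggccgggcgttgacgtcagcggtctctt
Eif3f, a subunit of eIF3, held the longest run of these windows, 15 bases across the start. Eef1a1 held 10. The longest runs of Eif3k, 7 bases, and of Eef2, 6 bases, end at the edge of the window, where a longer run would be cut. A match of letters in such a window is a description of the sequence and not a measured site of control.

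The old D1 libraries stood apart from the other 12 in 3 measures. The most abundant gene, Gm42418, took 4.45 to 5.41% of the assigned fragments in old D1 libraries and 9.76 to 18.2% elsewhere. The mean correlation of a library with the rest of its group was 0.748 to 0.792 in old D1 libraries and 0.822 to 0.881 elsewhere. The mean fragment length was 151 to 164 bases in old D1 libraries and 170.3 to 195 bases elsewhere. Genes with at least 1 count numbered 10369 to 13705 in old D1 libraries and 12783 to 15000 elsewhere, which overlapped. Assigned fragments ran from 27484038 to 70903004 over the 16 libraries. Drd1 stood at 320.0 to 610.0 TPM in old D1, no more than 320.0 in young D1, 53.4 to 91.8 in old D2 and 5.11 to 11.3 in young D2 libraries, and Drd2 at 2.14 to 48.5, 1.55 to 37.5, 2390.0 to 5720.0 and 2600.0 to 3670.0 TPM in the same order, so each library carried the receptor of its label. A list of 6 astrocyte markers, all of them detected, summed to 214 to 373 TPM in old D1 against 34.3 to 63.8 TPM in young D1 libraries, and to 73.4 to 139 TPM in old D2 against 18.1 to 53.9 TPM in young D2 libraries. The 6 markers of D1 neurons summed to 4600.0 to 7380.0 TPM in old D1 against 2460.0 to 3230.0 TPM in young D1 libraries, and the 5 spiny projection neuron markers to 3520.0 to 3720.0 TPM in old D1 against 4800.0 to 5980.0 TPM in young D1 libraries. The 5 oligodendrocyte markers overlapped, at 66.3 to 172 TPM in old D1 against 107 to 264 TPM in young D1 libraries. The 5 markers of GABAergic interneurons summed to 30.8 to 546 TPM in old D1 against 62.1 to 143 TPM in young D1 libraries, the 4 of glutamatergic neurons to 0.09 to 139 TPM in old D1 against 1.01 to 12.9 TPM in young D1 libraries, and of the 5 microglial markers C1qa was at 0 in every library. The part of these differences in the changes of the translation factors was not tested. In such bulk values, fewer cells of a type and less RNA per cell cannot be told apart.

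Between young and old D1 libraries, translation factors were called in both directions. The factor that joins the ribosomal subunits, Eif5b, the beta subunit of eIF2, Eif2s2, and 3 subunits of eIF3, Eif3a, Eif3c and Eif3f, were higher in old D1 libraries. The helicase Eif4a1 and its partner Eif4h, the cap-binding homologue Eif4e2, the hypusine-carrying factor Eif5a, 2 other eIF3 subunits, Eif3b and Eif3k, and the elongation factor subunit Eef1g were lower. In a fit of the compared groups alone, Eif5b, Eif2s2 and Eif3a stayed called higher. No member was called lower there, and the lowest adjusted p of those named as lower was 0.0749, for Eif4a1. In all, 5 of the 43 tested members rose and 7 fell, 27.9% of them, beside 10.8% of all 13926 genes (5.39% higher and 5.44% lower). Among genes with a mean of at least 10 TPM the background was 15.8%, and 41 of the tested members, all 12 called ones among them, were at that level. The median log2 fold change was -0.12 over the members and -0.06 over all genes tested, and 18 members had an unadjusted p under 0.05. No share of all genes at that unadjusted p is given, here or for the other comparisons. For 11 members the 4 old and the 4 young values did not overlap, beside 13.8% of all genes, with 6 above, beside 6.17%, and 5 below, beside 7.6%.

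**Figure D1:**
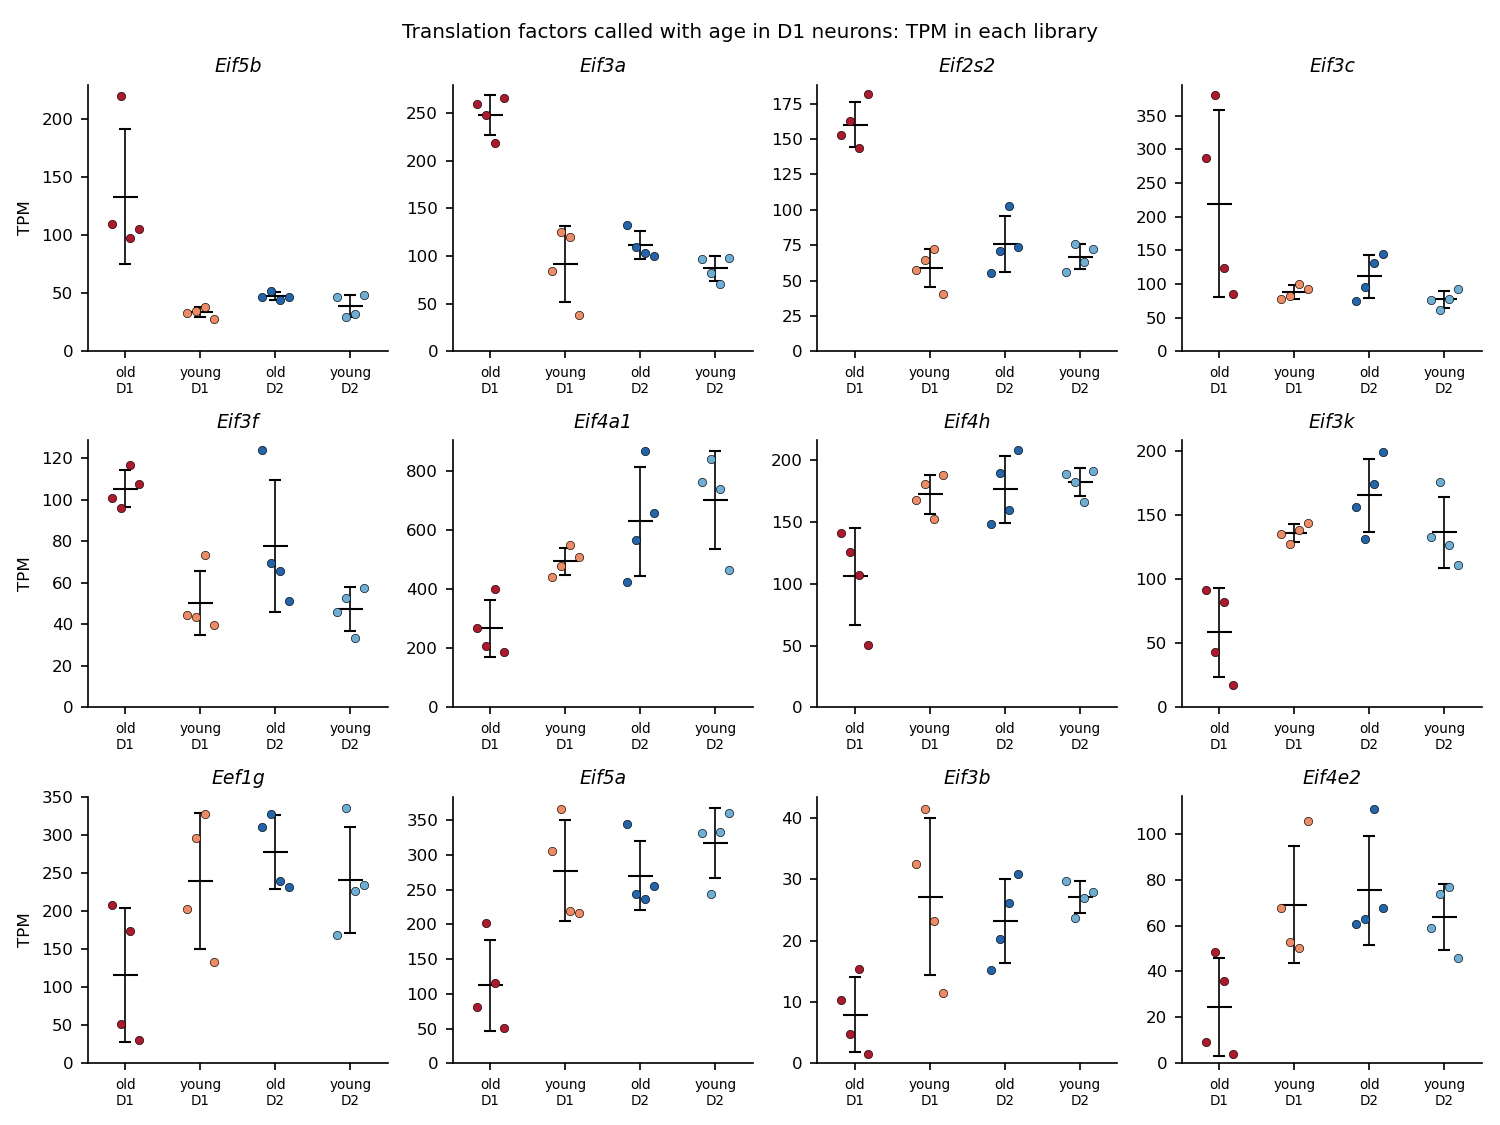
TPM (vertical axis, from 0) of the 12 translation factors called with age in D1 neurons, in the 4 libraries of old D1, young D1, old D2 and young D2, ordered by fold change. Points are libraries, and bars are the mean with the SD of 4; Eif5b, Eif3a, Eif2s2 and Eif3f have all 4 old D1 values above the young D1 ones, while in Eif3c 1 of the 4 old D1 values, 85.5 TPM, lies within the young range.

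Among the factors of start site recognition, Eif5b showed the largest rise of the list. Its level was 109.9, 220.0, 97.5 and 105 TPM in old D1 libraries, against 33.04, 34.99, 38.2 and 27.8 TPM in young D1 libraries. The lowest old D1 value was more than 2 times the highest young one, and old D1 library 2 stood above the other 3. The log2 fold change was 1.91 (SE 0.244, adjusted p = 0.000137), and the call held in 17 of 17 alternative settings, with 1.21 (adjusted p = 0.00524) once a trend over GC content and transcript length was removed. Exons of Eif5b (chr1:37998010-38055579, plus strand) overlap, over up to 419 bases, exons of Rev1 on the opposite strand, and the strand setting of the counting is not given in the sources used here. Rev1 stood at 4.63 to 94.9 TPM in old D1 and 4.88 to 14.7 TPM in young D1 libraries, against 97.5 to 220.0 TPM for Eif5b in old D1 libraries. Eif1, which keeps the scanning ribosome from starting at wrong codons, had the highest TPM of the list in all 4 groups. Its log2 fold change was -0.48 (SE 0.195, adjusted p = 0.122). Most of the TPM of Eif1 was assigned to Eif1-202, a form of 383 bases with no annotated coding sequence. Its mean share was 75.0% in old D1, 66.5% in young D1, 56.1% in old D2 and 61.1% in young D2 libraries. The coding form Eif1-201 held 23.3, 31.1, 41.8 and 36.8% in the same order. Eif5, the factor that makes eIF2 split its GTP at the start codon, stood at 252 to 442 TPM in old D1 against 184 to 229 TPM in young D1 libraries, without overlap, and missed the threshold at 0.58 (SE 0.192, adjusted p = 0.0585). With the trend removed its sign turned, at -0.04 (adjusted p = 0.927). Eif1b, a close copy of Eif1, had -0.17 (SE 0.551, adjusted p = 0.899).

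Of eIF2 and its exchange factor eIF2B, 1 of 7 genes was called, 14.3% beside 10.8% of all genes. Eif2s2, the beta subunit of eIF2 (chr2:154871410-154892935, minus strand), was at 153, 163, 144 and 182 TPM in old D1 libraries, against 57.2, 64.6, 72.2 and 40.5 TPM in young D1 libraries. All 4 old D1 values lay above the young D1 range and above the values of all 8 D2 libraries, which reached 102.8 TPM. Its log2 fold change was 1.33 (SE 0.253, adjusted p = 0.00241), called in 17 of 17 alternatives, and 0.82 (adjusted p = 0.0422) with the trend removed. Eif2s1, the alpha subunit that the stress kinases phosphorylate, stood at 64.2, 41.6, 30.3 and 37.1 TPM in old D1 libraries, against 46.7, 34.2, 39.6 and 24.1 TPM in young D1 libraries. These ranges overlapped, and the log2 fold change of Eif2s1 was 0.20 (SE 0.284, adjusted p = 0.722), with a sign that turned in 3 of 17 alternatives. The 5 subunits of eIF2B, Eif2b1 to Eif2b5, had group means between 5.33 and 61.1 TPM. Eif2b4, the member with the widest spread in old D1 libraries, was at 0, 24.96, 16.03 and 0.19 TPM in old D1 libraries against 10.01, 25.7, 12.3 and 12.6 TPM in young D1 libraries. The log2 fold changes of the 5 ran from -1.40 (Eif2b2) to 1.12 (Eif2b3) with SEs of 0.577 to 1.18, and none passed the test. The summed TPM of the 7 genes was 366, 291, 360.0 and 259.7 in old D1 libraries, against 206, 278, 229 and 108 in young D1 libraries.

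Of the 12 subunits of eIF3, 3 rose and 2 fell in old D1 libraries, 41.7% called beside 10.8% of all genes. Eif3a, the largest subunit, was at 259, 248, 219 and 266 TPM in old D1 libraries, against 84.8, 125, 119.5 and 38.3 TPM in young D1 libraries. The old D1 range lay wholly above, and the log2 fold change was 1.39 (SE 0.247, adjusted p = 0.0015). The call for Eif3a held in 16 of 17 alternatives and was lost with the trend removed, at 0.78 (adjusted p = 0.0688). Eif3f was at 101, 95.9, 117 and 108 TPM in old D1 libraries, against 44.2, 43.6, 73.1 and 39.5 TPM in young D1 libraries. Here too the ranges did not overlap, with a log2 fold change of 1.15 (SE 0.309, adjusted p = 0.0223), called in 12 of 17 alternatives and with the trend removed at 1.16 (adjusted p = 0.0291). The call for Eif3f was lost without young D1 library 1, 2 or 4 (adjusted p between 0.0602 and 0.0779) and in the fit of the compared groups alone (adjusted p = 0.0885). Eif3c was at 287, 380.5, 124 and 85.5 TPM in old D1 libraries, against 77.3, 82.2, 100.2 and 92.7 TPM in young D1 libraries. Only old D1 libraries 1 and 2 stood far above the young range, library 4 lay within it, and the log2 fold change was 1.2 (SE 0.34, adjusted p = 0.0289). This call held in 8 of 17 alternatives and was lost without old D1 library 1 or 2 or young D1 library 1, 2, 3 or 4 (adjusted p between 0.0534 and 0.122). Removing the trend (adjusted p = 0.0699) and fitting the compared groups alone (adjusted p = 0.146) lost the call for Eif3c too.

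In the opposite direction, Eif3b fell to 10.2, 4.72, 15.3 and 1.46 TPM in old D1 libraries, against 32.6, 41.5, 23.2 and 11.5 TPM in young D1 libraries. The ranges met, since young D1 library 4 was at 11.5 TPM, and old D1 library 4, at 74 counts, was the lowest. Its log2 fold change was -1.89 (SE 0.541, adjusted p = 0.0306), and -1.29 (adjusted p = 0.145) with the trend removed. The call for Eif3b held in 11 of 17 alternatives. It was lost in the fit of the compared groups alone (adjusted p = 0.19) and without old D1 library 2 or young D1 library 1 or 2 (adjusted p between 0.0663 and 0.0998). Eif3k, a small subunit, was at 91.4, 42.8, 82.6 and 17.2 TPM in old D1 libraries, against 136, 127, 138 and 144 TPM in young D1 libraries. Every old D1 value was below the young D1 range, whose 4 values lay close together, and the log2 fold change was -1.33 (SE 0.41, adjusted p = 0.0428). The call held in 7 of 17 alternatives, with -0.70 (adjusted p = 0.324) when the trend was removed, and was lost without old D1 library 2 or 4 or young D1 library 1, 2, 3 or 4 (adjusted p between 0.0572 and 0.0904). Fitting the compared groups alone lost the call for Eif3k too (adjusted p = 0.232). Eif3e was at 229, 264, 210.4 and 466 TPM in old D1 libraries, against 146, 172, 144 and 162 TPM in young D1 libraries. These ranges did not overlap, but the log2 fold change of 0.87 (SE 0.332, adjusted p = 0.0987) missed the threshold. The other 6 subunits, Eif3d, Eif3g, Eif3h, Eif3i, Eif3l and Eif3m, had log2 fold changes between -0.30 and 0.41, none called.

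Summed over its 12 subunits, eIF3 stood at 1422, 1510.0, 1331 and 1575 TPM in old D1 libraries, against 1041, 1019, 1114 and 1059 TPM in young D1 libraries, and at 1036, 1236, 1217 and 1218 TPM in old D2 libraries, against 1039, 1014, 930.4 and 925 TPM in young D2 libraries. The sum was higher in all 4 old D1 libraries than in any other library. The parts of that sum shifted. Eif3a made up 16.4 to 18.2% of the summed TPM in old D1 libraries against 3.62 to 12.3% in young D1 libraries, and Eif3k 1.09 to 6.43% against 12.4 to 13.6%. The 12 shares add up to the whole, so a larger share of 1 subunit lowers the others.

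**Figure D2:**
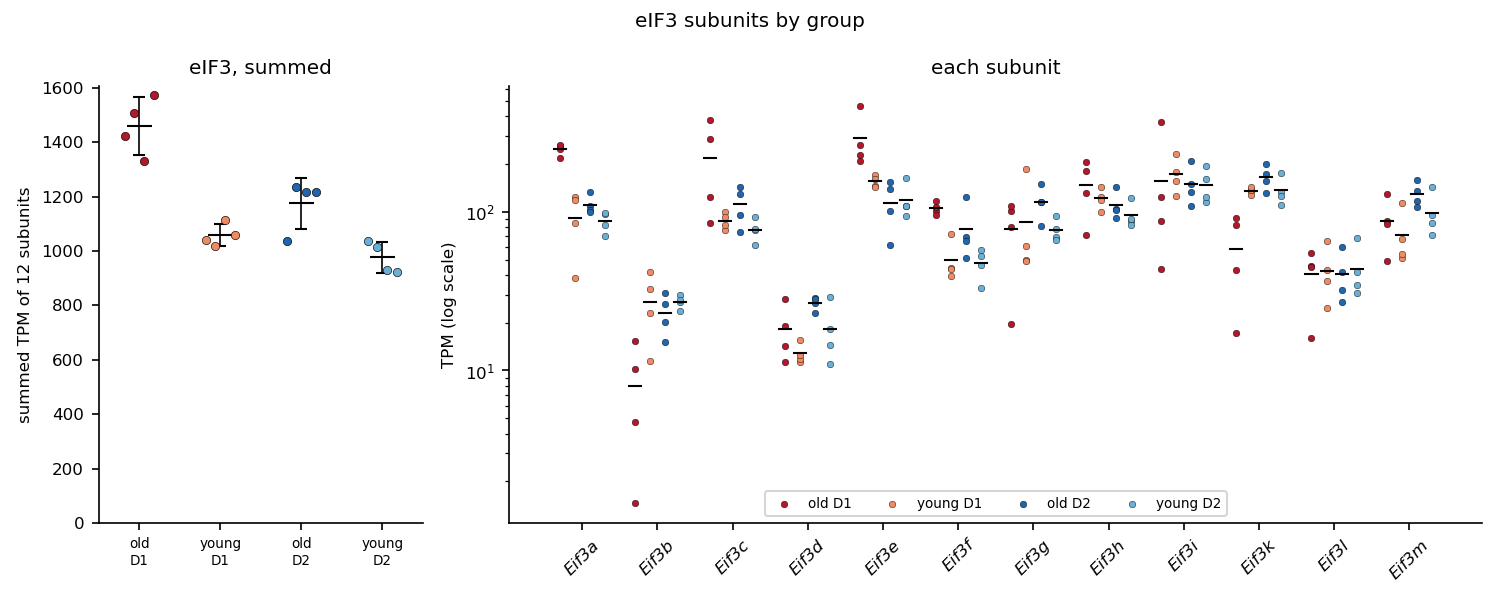
Left, summed TPM of the 12 eIF3 subunits (vertical axis, from 0) in each library of old D1, young D1, old D2 and young D2, with the mean and SD of 4. Right, TPM of each subunit on a log scale, with points for libraries and lines for group means; Eif3a lies above the other groups in old D1 libraries, at 219 to 266 TPM, and Eif3k lies lowest there, at 17.2 to 91.4 TPM.

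Of the 10 genes that bind the cap, unwind the leader or bridge the mRNA to the ribosome, 3 fell and none rose in old D1 libraries. That was 30.0% called, beside 10.8% of all genes (5.44% lower) and 15.8% of those with a mean of at least 10 TPM. Eif4a1, the helicase of the cap-binding complex (chr11:69666936-69672423, minus strand), was at 269, 209.6, 403 and 188 TPM in old D1 libraries, against 442, 480.2, 549.9 and 510.5 TPM in young D1 libraries. The ranges did not overlap, and the log2 fold change was -0.78 (SE 0.179, adjusted p = 0.00858), or -0.88 (adjusted p = 0.0106) with the trend removed. The call held in 15 of 17 alternatives, the exceptions being voom with library weights (adjusted p = 0.1) and the fit of the compared groups alone (adjusted p = 0.0749). Eif4h, which stimulates that helicase, was at 141, 126, 107 and 50.6 TPM in old D1 libraries, against 168, 181, 152 and 188 TPM in young D1 libraries. It too was lower without overlap, with a log2 fold change of -0.82 (SE 0.234, adjusted p = 0.0301). With the trend removed, Eif4h was at -0.27 (adjusted p = 0.523), and the call was also lost without young D1 library 2 or 4 (adjusted p between 0.0652 and 0.0814). The call for Eif4h held in 11 of 17 alternatives and was lost in the fit of the compared groups alone as well (adjusted p = 0.163). Eif4e2, a relative of eIF4E that binds the cap without starting translation, was at 9.17, 48.5, 35.8 and 3.87 TPM in old D1 libraries, against 67.8, 52.9, 50.1 and 105 TPM in young D1 libraries. The highest old D1 value stayed just under the lowest young one, old D1 library 4 held 226 counts, and the log2 fold change was -1.98 (SE 0.509, adjusted p = 0.0176), or -2.17 (adjusted p = 0.0191) with the trend removed. The call for Eif4e2 held in 14 of 17 alternatives. Its losses included the fit of the compared groups alone (adjusted p = 0.112) and that without young D1 library 4 (adjusted p = 0.068).

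The cap-binding protein itself, Eif4e, was at 182, 164, 194 and 143 TPM in old D1 libraries, against 138, 142, 173 and 106 TPM in young D1 libraries. These overlapped, and the log2 fold change was 0.21 (SE 0.174, adjusted p = 0.477), turning to -0.50 (adjusted p = 0.155) with the trend removed. The poly(A)-binding protein Pabpc1, which ties the tail of the mRNA to eIF4G, was at 512, 332, 482 and 351 TPM in old D1 libraries, against 245, 302, 481 and 216 TPM in young D1 libraries. Its log2 fold change was 0.06 (SE 0.23, adjusted p = 0.917), with a sign that turned in 5 of 17 alternatives. Eif4a2, the second helicase and the form of higher level in every group, had -0.27 (SE 0.201, adjusted p = 0.432). Its share of the summed TPM of Eif4a1 and Eif4a2 was 77.7, 82.2, 67.0 and 66.7% in old D1 libraries, against 66.0, 66.7, 65.5 and 53.7% in young D1 libraries, with the lower 2 old values at the upper end of the young ones. The other 4 genes, Eif4b, Eif4g1, Eif4g2 and Eif4g3, ranged from -0.36 (Eif4g2) to 0.64 (Eif4g3) without a call.

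The 4E-BPs, which hold eIF4E back, include the scarcest member of the list, Eif4ebp1. It was at 0 TPM in 14 of 16 libraries, at 0.6 TPM in old D1 library 4 and at 0.31 TPM in young D1 library 1, and was not tested. Eif4ebp2, the form known from brain, was at 1.22, 20.2, 11.4 and 0.03 TPM in old D1 libraries, against 31.2, 17.97, 15.2 and 53.4 TPM in young D1 libraries. Old D1 libraries 1 and 4 were far below the rest, with 1 count in library 4, whereas library 2 lay within the young range and library 3 below it. The log2 fold change of -2.22 (SE 0.943, adjusted p = 0.137) missed the threshold in edgeR, while DESeq2 and limma on log2(TPM + 1) called it (adjusted p = 0.0451 in DESeq2 and 0.047 in limma).

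Eif5a, which carries the modified amino acid hypusine and helps the ribosome past stretches that stall it, was at 80.5, 202, 116 and 50.5 TPM in old D1 libraries, against 306, 366, 219.5 and 216 TPM in young D1 libraries. All old D1 values lay below the young D1 range and below the 8 D2 values, the lowest of which was 236.6 TPM. Its log2 fold change was -1.40 (SE 0.304, adjusted p = 0.00641), called in 15 of 17 alternatives. It was not called in the fit of the compared groups alone (adjusted p = 0.0809) nor with the trend removed, at -0.64 (adjusted p = 0.248). Eif6, which keeps the ribosomal subunits apart, ranged from 16.1 to 96.8 TPM in old D1 and from 54.9 to 75.8 TPM in young D1 libraries and was not called, at -0.85 (SE 0.603, adjusted p = 0.397).

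Of the 7 elongation genes, 1 was called with age in D1 neurons, 14.3% beside 10.8% of all genes and 15.8% of those with a mean of at least 10 TPM. Eef1g, the gamma subunit of the eEF1B exchange complex, fell to 208, 51.6, 174 and 29.98 TPM in old D1 libraries, against 202, 297, 327 and 133 TPM in young D1 libraries. The groups overlapped, old D1 libraries 2 and 4 being low and libraries 1 and 3 within the young range, with a log2 fold change of -1.35 (SE 0.424, adjusted p = 0.0461). The call held in 8 of 17 alternatives and was lost without old D1 library 2 or 4 or young D1 library 1, 2 or 3 (adjusted p between 0.0654 and 0.112). Removing the trend (adjusted p = 0.0819) and fitting the compared groups alone (adjusted p = 0.198) lost the call for Eef1g too. Eef1a1, which delivers aminoacyl tRNA and was among the 3 most abundant members in every group, was at 797, 944, 855 and 679 TPM in old D1 libraries, against 714, 745, 598 and 703 TPM in young D1 libraries. The ranges overlapped, with a log2 fold change of 0.26 (SE 0.148, adjusted p = 0.28). Eef1a2, the form of neurons and muscle, was at 65.3, 72.8, 85.6 and 59.2 TPM in old D1 libraries, against 129, 73.9, 62.7 and 82.7 TPM in young D1 libraries. The values overlapped, at -0.38 (SE 0.306, adjusted p = 0.464), and the sign turned with the trend removed, at 0.98 (adjusted p = 0.0559); Eef1a2 had the highest GC content of the list, 60.6%.

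Within the sum of the 2 forms, Eef1a2 took 7.57, 7.16, 9.10 and 8.02% of the TPM in old D1 libraries, against 15.3, 9.02, 9.48 and 10.5% in young D1 libraries, and 8.06, 16.2, 20 and 15.1% in old D2 libraries, against 13.0, 12.8, 12.7 and 9.59% in young D2 libraries. Old D1 library 3 lay just above the lowest young D1 library, so these groups touched. The translocase Eef2 was at 167, 182, 146 and 18.9 TPM in old D1 libraries, against 153, 244, 207 and 120.2 TPM in young D1 libraries. Old D1 library 4 was far below the other 7 libraries, and the log2 fold change was -0.61 (SE 0.393, adjusted p = 0.341), turning to 0.17 (adjusted p = 0.856) with the trend removed. Eef1b2, Eef1d and the eEF2 kinase Eef2k had log2 fold changes of 0.65 (SE 0.356), -0.14 (SE 0.787) and 1.02 (SE 0.867), none called. Most of the TPM of Eef1b2 was assigned to Eef1b2-201, annotated for nonsense-mediated decay, with 144 coding bases against 675 in Eef1b2-204. The mean share of Eef1b2-201 was 78.9% in old D1, 58.3% in young D1, 61.2% in old D2 and 57.3% in young D2 libraries. Eef2k was among the lowest of the list, and its old D1 values of 27.4, 34.7, 2.32 and 2.69 TPM, against 6.36, 3.15, 5.60 and 7.44 TPM in young D1 libraries, split into 2 high and 2 low libraries.

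**Figure D3:**
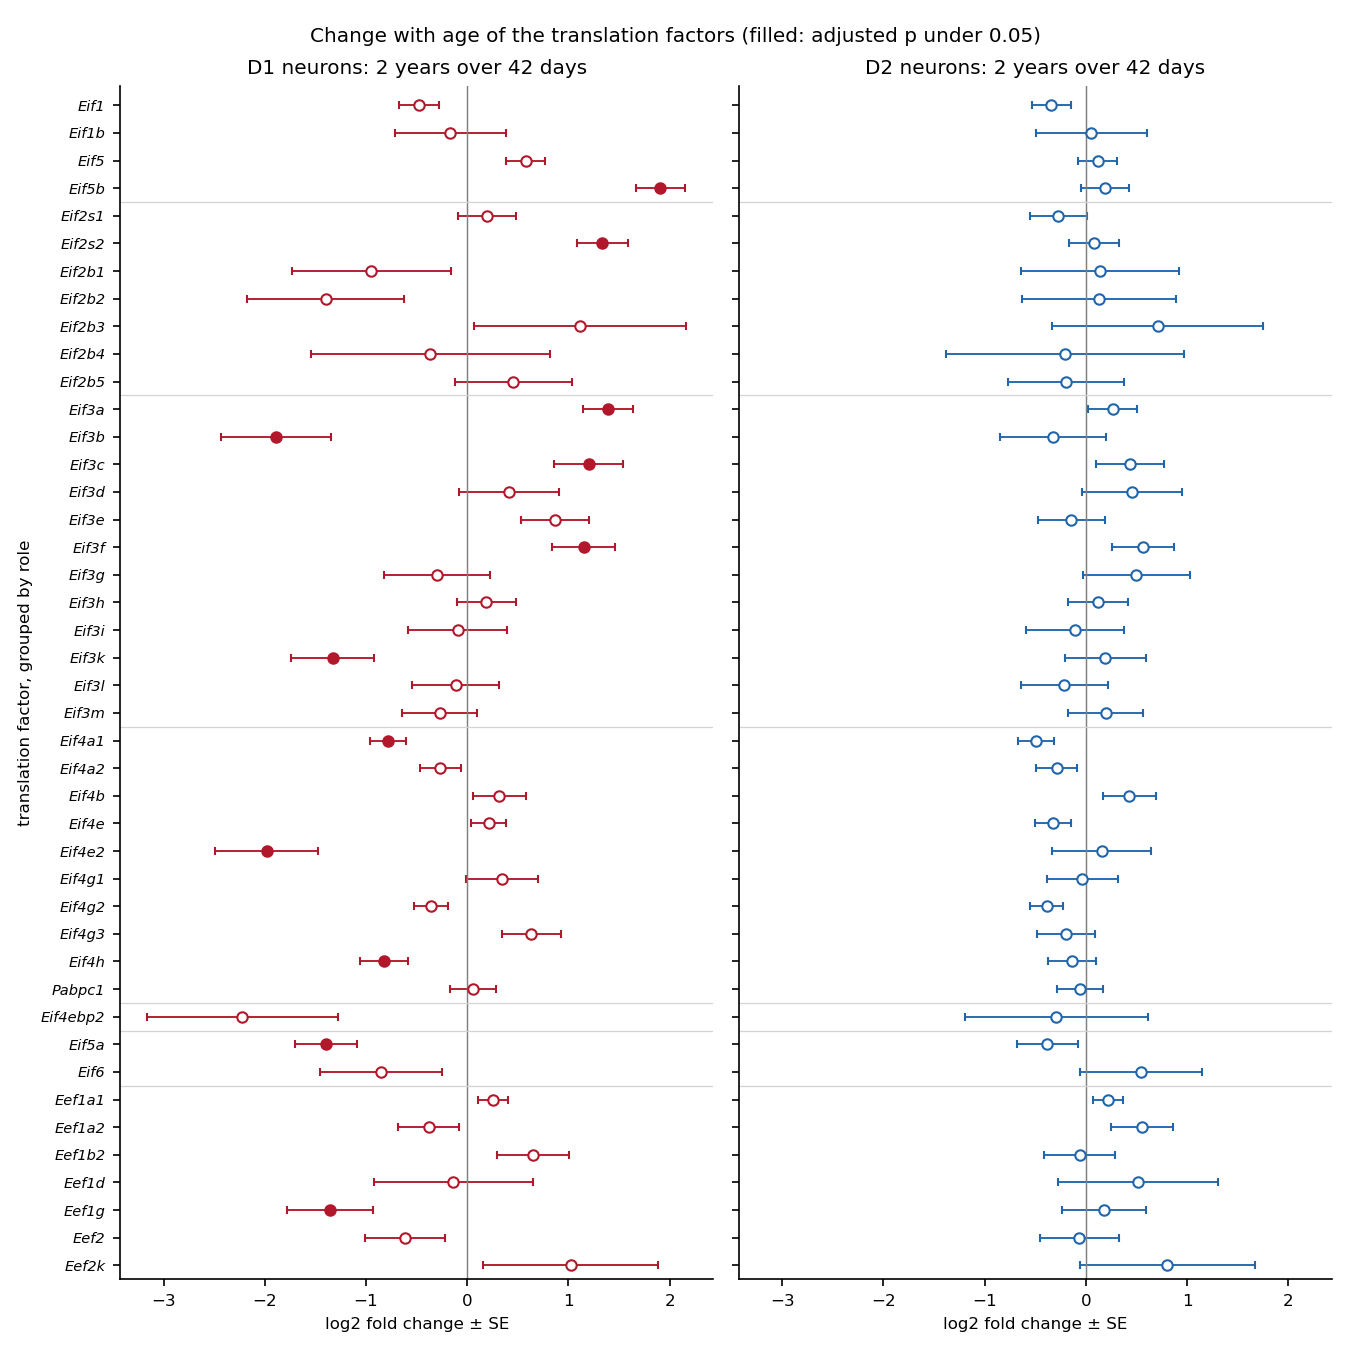
Log2 fold change with age (horizontal axis, 2 years over 42 days, with SE) of the 43 tested translation factors in D1 neurons (left) and D2 neurons (right), ordered by role from start site recognition at the top to elongation at the bottom. Filled points passed an adjusted p of 0.05: 12 in D1 and 0 in D2 neurons, where the estimates lie between -0.49 and 0.80.

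In D2 neurons no translation factor was called with age, beside 0.079% of all genes. By edgeR 2 of the 43 had an unadjusted p under 0.05, and the count stayed at 0 in every alternative, DESeq2 and limma included. Eif5b was at 46.6, 52.3, 43.8 and 46.96 TPM in old D2 libraries, against 46.4, 29.6, 32.3 and 48.3 TPM in young D2 libraries, with a log2 fold change of 0.19 (SE 0.236, adjusted p = 1.0). Eif2s2 was at 55.2, 70.9, 103 and 73.8 TPM in old D2 libraries, against 56.3, 75.95, 62.9 and 72.5 TPM in young D2 libraries, at 0.08 (SE 0.248, adjusted p = 1.0). For both genes the old values overlapped the young ones. The ranges of 3 members, Eif3a, Eif4b and Eef1d, lay above the young D2 range, beside 4.43% of all genes above and 7.07% not overlapping in either direction. Eif4a1, with the 4 values 426, 566, 869.9 and 659 TPM in old D2 libraries, against 765, 842, 742 and 464 TPM in young D2 libraries, had the smallest p of the list, at -0.49 (SE 0.178, adjusted p = 0.667). The median over the members was 0.08, against 0.01 over all genes.

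Eef1a1, Eef1a2 and Eef2 had overlapping values at both ages in D2 neurons. Eef1a1 was at 787, 954, 793 and 1055 TPM in old D2 libraries, against 733, 809, 685 and 771 TPM in young D2 libraries, with a log2 fold change of 0.22 (SE 0.148, adjusted p = 1.0). Eef1a2 was at 68.96, 184, 199 and 187 TPM in old D2 libraries, against 109, 119, 99.7 and 81.8 TPM in young D2 libraries, with old D2 library 1 lowest of all 8, at 0.55 (SE 0.307, adjusted p = 1.0). Eef2 was at 199.7, 236, 234 and 195 TPM in old D2 libraries, against 284, 198, 193 and 176 TPM in young D2 libraries, at -0.07 (SE 0.391, adjusted p = 1.0). None of these 3 passed the test. Of the initiation factors, Eif2s1 was at 33.6, 40.97, 57.4 and 42.04 TPM in old D2 libraries, against 44.7, 56.8, 44.8 and 51.9 TPM in young D2 libraries, at -0.27 (SE 0.284, adjusted p = 1.0), and Eif4e at 170.1, 139.5, 167 and 132 TPM in old D2 libraries, against 164, 179, 169.6 and 207 TPM in young D2 libraries, at -0.33 (SE 0.174, adjusted p = 0.988). Both groups overlapped in either gene. Eif5a was at 344, 244, 237 and 256 TPM in old D2 libraries, against 331, 244, 334 and 360.4 TPM in young D2 libraries, at -0.38 (SE 0.299, adjusted p = 1.0), and Pabpc1 at 390.4, 318, 294 and 402 TPM in old D2 libraries, against 364, 359, 252 and 331 TPM in young D2 libraries, at -0.06 (SE 0.23, adjusted p = 1.0). Eif4ebp2 was at 13.2, 32.8, 80.8 and 29.9 TPM in old D2 libraries, against 41.3, 37.8, 46.8 and 34.7 TPM in young D2 libraries, at -0.29 (SE 0.901, adjusted p = 1.0), with old D2 library 3 highest and library 1 lowest of all 8, while Eif4ebp1 was at 0 TPM in every D2 library.

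The difference between the age changes, D1 minus D2, was tested as an interaction, which 1.77% of all genes passed. Eif5b alone of the 43 members passed, with a difference of 1.72 (SE 0.336, adjusted p = 0.0164) on the log2 scale, in 22 of 24 alternatives. It did not pass in limma on log2(TPM + 1), at 1.59 (adjusted p = 0.067), nor with the trend removed, at 1.04 (adjusted p = 0.154). Next came Eif2s2 at 1.26 (SE 0.352, adjusted p = 0.0684), Eif3a at 1.12 (SE 0.344, adjusted p = 0.095) and Eif4e2 at -2.14 (SE 0.702, adjusted p = 0.116), and 11 members had an unadjusted p under 0.05. For the other members called in D1 neurons, a different size of change in D2 neurons was therefore not shown.

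Between the 2 kinds of neuron, no member was called at 42 days, beside 0.409% of all genes. By edgeR 1 member, Eef2k, had an unadjusted p under 0.05, at 1.91 (SE 0.888, adjusted p = 0.804), and the count stayed at 0 in every alternative, DESeq2 included. The values of Eif4a2 alone did not overlap, all 4 young D1 values being lower, beside 3.98% of all genes lower and 6.35% not overlapping in either direction, at -0.32 (SE 0.201, adjusted p = 0.999). The log2 differences of the elongation factors at 42 days were 0.04 (SE 0.147) for Eef1a1, -0.12 (SE 0.306) for Eef1a2 and -0.14 (SE 0.391) for Eef2, those of Eif4e, Eif2s1 and Pabpc1 -0.26 (SE 0.174), -0.36 (SE 0.285) and 0.03 (SE 0.23), and those of Eif5a and Eif4ebp2 -0.09 (SE 0.298) and -0.37 (SE 0.902), with adjusted p values of at least 0.999. At 2 years 10 of the 43 were called, 5 higher and 5 lower in D1 neurons, 23.3% beside 9.6% of all genes (5.02% higher and 4.58% lower) and 13.9% of those with a mean of at least 10 TPM, and 21 had an unadjusted p under 0.05. This comparison and the age change in D1 neurons share the old D1 libraries, so they are not independent, and their values stand side by side here only as descriptions. For 13 members the old D1 and old D2 ranges did not overlap, beside 14.8% of all genes.

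At 2 years Eif5b was higher in D1 neurons by 1.60 (SE 0.242, adjusted p = 0.000387) and Eif2s2 by 1.16 (SE 0.251, adjusted p = 0.00698) on the log2 scale, with the values given above for both groups. Eif3a was at 259, 248, 219 and 266 TPM in old D1 libraries, against 133, 109.5, 103.0 and 100.2 TPM in old D2 libraries, without overlap, at 1.28 (SE 0.246, adjusted p = 0.00314). Eif3e was at 229, 264, 210.4 and 466 TPM in old D1 libraries, against 61.9, 101, 155 and 139.5 TPM in old D2 libraries. These did not overlap, at 1.53 (SE 0.337, adjusted p = 0.00779). Eif4g3, a second scaffold of the cap-binding complex, was at 111, 114, 50.3 and 55.5 TPM in old D1 libraries, against 21.9, 41.2, 31.4 and 38.3 TPM in old D2 libraries. All old D1 values were higher, at 1.21 (SE 0.291, adjusted p = 0.0134). With the trend removed, Eif5b and Eif4g3 stayed called, at 1.06 (adjusted p = 0.0102) and 1.27 (adjusted p = 0.00982), while Eif3a, at 0.83 (adjusted p = 0.0526), Eif2s2, at 0.63 (adjusted p = 0.115), and Eif3e, at 0.91 (adjusted p = 0.0807), did not.

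Lower in old D1 than in old D2 neurons were Eif4e2, Eif3k, Eif5a, Eef1g and Eef1a2. Eif4e2 was at 9.17, 48.5, 35.8 and 3.87 TPM in old D1 libraries, against 60.6, 62.9, 111 and 67.5 TPM in old D2 libraries, at -1.85 (SE 0.507, adjusted p = 0.0266). Eif3k was at 91.4, 42.8, 82.6 and 17.2 TPM in old D1 libraries, against 156, 132, 174 and 199 TPM in old D2 libraries, at -1.39 (SE 0.41, adjusted p = 0.0388). Eif5a was at 80.5, 202, 116 and 50.5 TPM in old D1 libraries, against 344, 244, 237 and 256 TPM in old D2 libraries, at -1.10 (SE 0.302, adjusted p = 0.0267). In these 3 genes all old D1 values lay below all old D2 values. With the trend removed Eif4e2 was at -1.91 (adjusted p = 0.0328), Eif3k at -0.97 (adjusted p = 0.164) and Eif5a at -0.53 (adjusted p = 0.36). Eef1g was at 208, 51.6, 174 and 29.98 TPM in old D1 libraries, against 310.5, 327, 240.0 and 231 TPM in old D2 libraries, again without overlap, at -1.39 (SE 0.424, adjusted p = 0.0435), or -1.42 (adjusted p = 0.0459) with the trend removed. Eef1a2 was at 65.3, 72.8, 85.6 and 59.2 TPM in old D1 libraries, against 68.96, 184, 199 and 187 TPM in old D2 libraries. Old D2 library 1, at 69.0 TPM, lay within the old D1 range, and the other 3 were above it. The log2 difference of Eef1a2, -1.06 (SE 0.309, adjusted p = 0.0363), turned to 0.09 (adjusted p = 0.899) with the trend removed. The calls lower in D1 neurons rested on single libraries more than those higher. Their count was 0 without old D2 library 3, 1 without old D1 library 4 or old D2 library 2, 2 without old D1 library 1 or 2 or old D2 library 1 or 4, and 8 without old D1 library 3, whereas the count of higher members stayed between 5 and 6. Members given here whether called or not were not called at 2 years, with log2 differences of 0.08 (SE 0.148) for Eef1a1, -0.68 (SE 0.393) for Eef2, 0.28 (SE 0.174) for Eif4e, 0.10 (SE 0.284) for Eif2s1, 0.14 (SE 0.23) for Pabpc1 and -2.30 (SE 0.945) for Eif4ebp2. With the trend removed the sign turned for 5 of these, at -0.15 (adjusted p = 0.645) for Eef1a1, 0.15 (adjusted p = 0.883) for Eef2, -0.29 (adjusted p = 0.458) for Eif4e, -0.41 (adjusted p = 0.41) for Eif2s1 and -0.15 (adjusted p = 0.798) for Pabpc1.

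Base composition varied with the measured changes. Over the 43 members, the log2 fold change with age in D1 neurons ran against the GC content of the main transcript with a Spearman rho of -0.45 across genes, and over 13821 genes with a rho of -0.34. Genes of a library share its fragments and are not independent, so no p is given. The 5 members that rose had a GC content of 41.0 to 49.8% (median 44.5%) and a median transcript length of 3383 bases, and the 7 that fell 48.1 to 55.9% (median 54.1%) and 1774 bases. In D2 neurons rho over the members was 0.14 with age. Between D1 and D2 neurons it was -0.01 at 42 days and -0.49 at 2 years. Removing a trend over GC content and length, fitted per library with the median kept, brought rho over the members to 0.08 for the age change in D1 neurons. In that fit 3 members rose, Eif2s2, Eif3f and Eif5b, and 4 fell, Eif1 at -0.72 (adjusted p = 0.0457), Eif4a1, Eif4e2 and Eif4g2 at -1.04 (adjusted p = 0.00159). The share of all genes called in that fit is not given, so these counts do not set the members apart. Eif4g2 was called in no other alternative and was at -0.36 (adjusted p = 0.172) as fitted. GC content and length were taken from GENCODE transcripts, which can differ from those counted. The main transcript of Eif4g2 has 7995 bases there, against 5177 for Eif4g2-213 as counted. Eif4e has 4991 bases there, against 2882 for Eif4e-201 as counted, and Eif4ebp2 has 5784, against 1786 and 1422 for its forms as counted. For Eif1 they are those of a form of 383 bases. Short forms also gave them for Pabpc1 (747 bases), Eef1b2 (802), Eif2b5 (821), Eif6 (402) and Eef1d (704). These are examples, and the trend-removed values of such members are less certain. Between the 2 fits, Eif2s2, Eif3f and Eif5b were called higher in both, and Eif4a1 and Eif4e2 lower in both. The part of base composition in the measured changes was not tested beyond this.

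**Figure D4:**
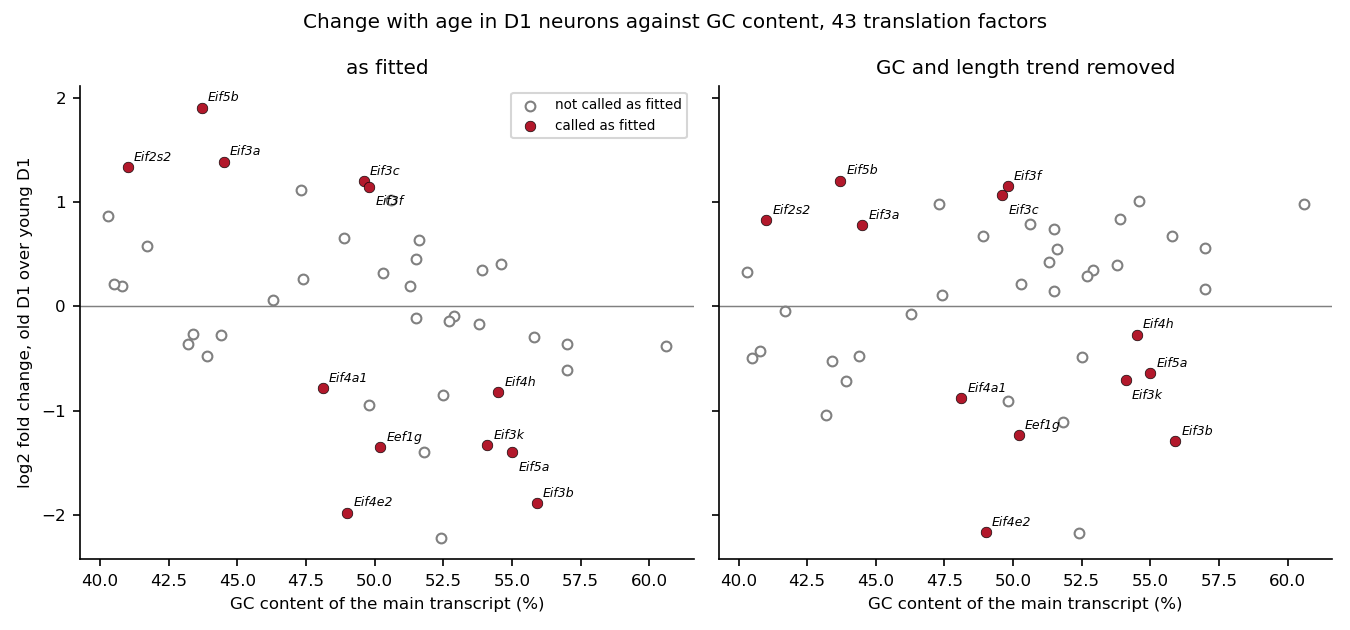
Log2 fold change with age in D1 neurons (vertical axis, old D1 over young D1) against the GC content of the main transcript in percent, for the 43 tested translation factors, as fitted (left) and after the trend over GC content and length was taken out (right). Filled points are the 12 members called as fitted; rho over the members is -0.45 on the left and 0.08 on the right.

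The isoform tables give, for each transcript, its share of the TPM of its gene. Of the 43 members with a group mean of at least 10 TPM, 70 isoforms held at least 20% in 1 group mean or more. For 9 of these 70, in 6 members, the old D1 and young D1 shares did not overlap, beside 9.22% of 16773 isoforms chosen in the same way over all genes. The count is near that share, so it does not set the members apart. Isoforms of 1 gene are not independent either. In Eif2s2, Eif2b5 and Eif3m both main forms are among the 9, with 1 form higher and the other lower. The shares below are descriptions. In D2 neurons 2 isoforms, Eif2b2-203 and Pabpc1-204, both retained introns, lay above their young shares, beside 2.2%. RSEM estimates these shares from the same short fragments, and they have no test here.

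Eif2s2-205 (chr2:154871418-154892782) took 82.4, 70.0, 88.2 and 84.1% of Eif2s2 in old D1 libraries, against 34.0, 46.3, 20.5 and 0% in young D1 libraries, and no more than 58.5% in any D2 library. It shares the start codon, the stop codon and a coding length of 993 bases with Eif2s2-201 and begins 153 bases further in, with an extra exon. Eif3m-202, a shorter coding form of Eif3m with 726 coding bases against 1122 in Eif3m-201, took 20.7, 56.5, 60.8 and 58.9% in old D1 libraries, against 0, 0, 1.92 and 0% in young D1 libraries. In D2 neurons it took 6.30, 37.5, 0 and 0% in old D2 libraries, the second of which lay above old D1 library 1, against 0% in all 4 young D2 libraries. Eif4g1-207, annotated without its 3′ end, took 63.4, 83.9, 80.8 and 93.3% of the scaffold gene Eif4g1 in old D1 libraries, against 21.8, 5.49, 53.0 and 0% in young D1 libraries. All 3 shares were higher in every old D1 library than in every young D1 one.

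Other isoforms had smaller shares in old D1 libraries. Eef1g-201, the full coding form of Eef1g, was at 0, 0, 0.29 and 0% in old D1 libraries, against 45.3, 31.7, 5.25 and 39.4% in young D1 libraries. Nearly all the rest of Eef1g in old D1 libraries, 100.0, 96.4, 99.7 and 87.3%, was assigned to Eef1g-205, a retained-intron form of the 3′ part of the gene (chr19:8972404-8978479) with no annotated coding sequence, against 54.2, 67.6, 94.7 and 60.2% in young D1 libraries, where the ranges overlapped. Eif5a-210, whose start window is given above, was at 0% in all 4 old D1 libraries, against 22.4, 31.0, 11.7 and 22.5% in young D1 libraries. Eif5a-209 was at 0, 71.8, 65.8 and 0% in old D1 libraries and at 66.5, 50.8, 54.6 and 71.4% in young D1 libraries, and Eif5a-213 at 94.7, 26.3, 32.0 and 100.0% in old D1 libraries and at 8.23, 15.2, 30.5 and 4.17% in young D1 libraries. All 3 forms of Eif5a encode the same 462 coding bases and differ in where they begin. Eif2b5-201, the long coding form of the catalytic subunit of eIF2B, was at 10.9, 7.43, 4.71 and 2.89% in old D1 libraries, against 22.7, 15.7, 13.0 and 64.1% in young D1 libraries, and the rest went to Eif2b5-202, annotated without its 5′ end.

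**Figure D5:**
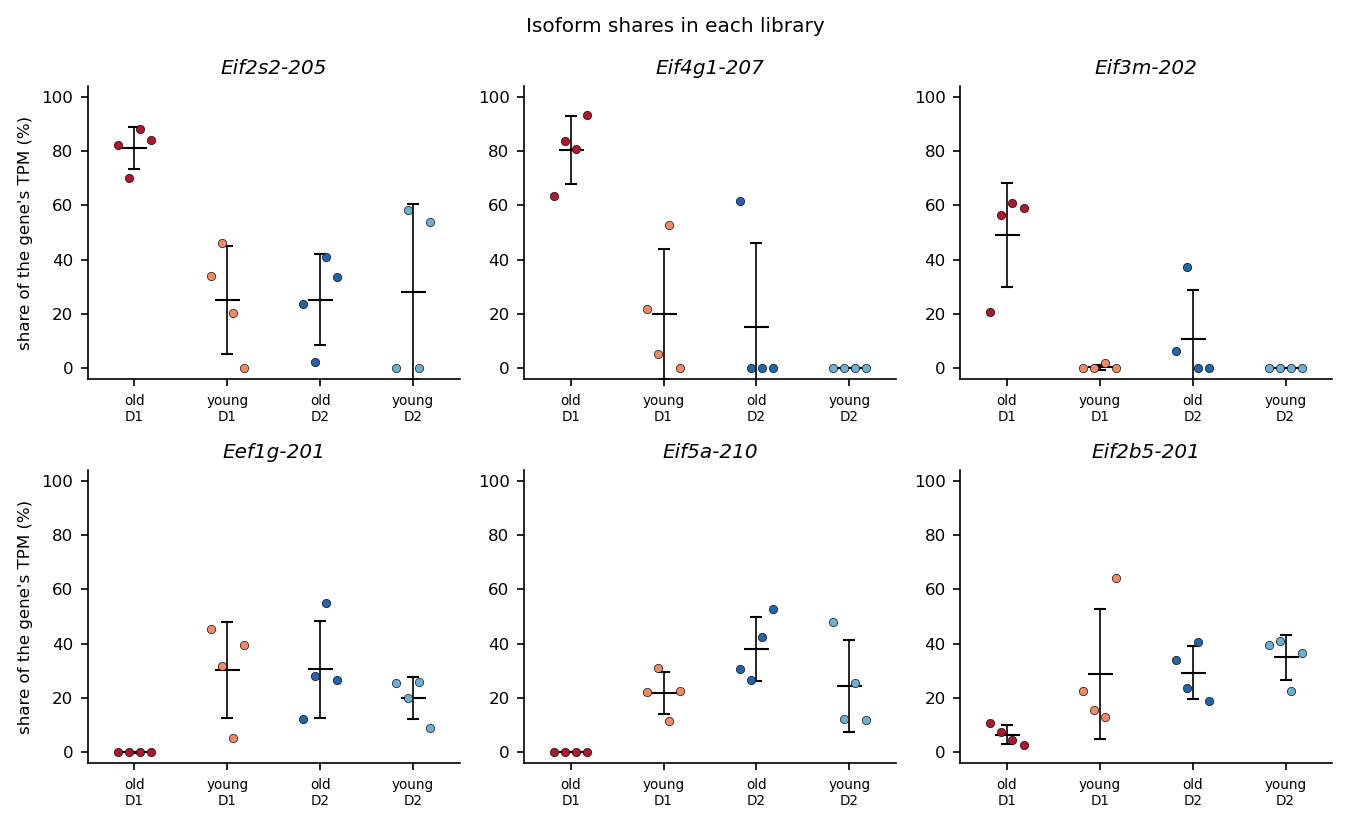
Share of the TPM of its gene (vertical axis, percent) held by 6 isoforms of translation factors in each library of old D1, young D1, old D2 and young D2, with the mean and SD of 4. Eif2s2-205, Eif4g1-207 and Eif3m-202 have larger shares in old D1 than in young D1 libraries, with Eif3m-202 also at 37.5% in old D2 library 2, and Eef1g-201, Eif5a-210 and Eif2b5-201 have smaller ones, with Eif5a-210 at 0% in all 4.

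The spread among replicates was widest in old D1 libraries. The coefficient of variation of TPM had a median over the 43 members of 41.9% in old D1, 26.4% in young D1, 24.3% in old D2 and 20.3% in young D2 libraries, beside 57.4%, 35.7%, 30.6% and 28.3% over the 8092 genes with a mean of at least 10 TPM. In old D1 libraries 18 of the 43 members had one above 50%, against 7 in young D1 libraries. The steadiest member in old D1 libraries was Eif4g2, an initiation factor that works without eIF4E, at 7.76%, and the least steady was Eif2b4, at 120.0%. The order of levels was alike at its top. Eif1, Eif4a2 and Eef1a1 were the first 3 in every group by TPM, most of that of Eif1 being assigned to its short non-coding form. Eif4a1 was of rank 4 in young D1, old D2 and young D2 libraries and of rank 8 in old D1 libraries. The sum over all 44 members was 7836, 7793, 8963 and 6593 TPM in old D1 libraries, against 7407, 7954, 8015 and 6832 TPM in young D1 libraries, so the totals overlapped.

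Other genes of the pathway were counted from 3 further lists. Of 19 related factors, 17 were tested, and 2 rose with age in D1 neurons, Eif2s3x and Eif2a, 11.8% beside 10.8% of all genes. Eif2s3x, the gamma subunit of eIF2, was at 149, 143, 130.2 and 142 TPM in old D1 libraries, against 71.7, 66.2, 127 and 55.6 TPM in young D1 libraries. None of these overlapped, at 0.94 (SE 0.195, adjusted p = 0.00482), and the call was lost with the trend removed, at 0.43 (adjusted p = 0.156). Eif2a, which can bring in the initiator tRNA without eIF2, was at 235, 179, 289 and 178 TPM in old D1 libraries, against 157, 97.7, 127 and 80.5 TPM in young D1 libraries. It rose by 0.81 (SE 0.26, adjusted p = 0.0497) and was called in 5 of 17 alternatives, the call being lost without old D1 library 1 or 3 or young D1 library 1, 2, 3 or 4 (adjusted p between 0.0589 and 0.136). At 2 years Eif3j1, a loosely bound partner of eIF3, was higher in D1 than in D2 neurons, at 1.22 (SE 0.369, adjusted p = 0.0424), in 6 of 17 alternatives, and not without old D1 library 1 or 3 or old D2 library 1, 2, 3 or 4 (adjusted p between 0.0624 and 0.151).

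Of 31 regulators and modifiers, all tested, 3 rose and 1 fell with age in D1 neurons, 12.9% beside 10.8% of all genes. The shares in these lists and among the mitochondrial factors were near that of all genes. Impact, which restrains the eIF2 kinase GCN2, was at 234, 323, 153 and 296 TPM in old D1 libraries, against 101, 86.99, 105 and 66.2 TPM in young D1 libraries. These did not overlap, at 1.44 (SE 0.246, adjusted p = 0.00115), called in 17 of 17 alternatives, and Impact was also higher in old D1 than in old D2 libraries, at 1.03 (SE 0.244, adjusted p = 0.0123), a call that held in 12 of 17 alternatives. It was lost without old D2 library 2 (adjusted p = 0.0586). Taking the trend out also ended it, at 0.51 (adjusted p = 0.155). Mtor, the kinase upstream of the 4E-BPs, was at 76.9, 25.1, 12.6 and 50.7 TPM in old D1 libraries, against 36.5, 9.21, 5.23 and 7.88 TPM in young D1 libraries. They overlapped, at 1.62 (SE 0.501, adjusted p = 0.0431), and the call held in 7 of 17 alternatives. It was lost without old D1 library 2 or 4 or young D1 library 1, 2, 3 or 4 (adjusted p between 0.054 and 0.194), and without old D1 library 4 the log2 fold change of Mtor was 0.89. Paip2, which binds the poly(A)-binding protein and holds translation back, rose by 0.77 (SE 0.23, adjusted p = 0.038), in 6 of 17 alternatives, and was lost without old D1 library 2 or young D1 library 1, 2, 3 or 4 (adjusted p between 0.0578 and 0.125). Dph1, which helps build the diphthamide of eEF2, had 2 counts over the 4 old D1 libraries, against 530 over the 4 young D1 and 869 over the 4 old D2 libraries, and was called lower in both comparisons. Of 6 mitochondrial factors 1 was called, 16.7%. Gfm1, the mitochondrial translocase, was at 0.43, 4.96, 11.9 and 0.47 TPM in old D1 libraries, against 18.3, 25.3, 23.6 and 53.6 TPM in young D1 libraries. It was lower without overlap, at -3.35 (SE 0.75, adjusted p = 0.00755), and at -3.14 (SE 0.743, adjusted p = 0.0121) against old D2 libraries. No gene of the 3 lists was called with age in D2 neurons, in the difference of the age changes or between the neurons at 42 days.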

How the data were processed

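Ribosome-bound mRNA from the striatum was sequenced in 16 libraries, 4 in each of 4 groups, and the labels' protocols name NuGEN Ovation V2 for the library step. STAR 2.5.1b, RSEM 1.2.20 and the mm10 genome are named in the submitters' processing notes; not given in the sources used here are the annotation release, the strand setting and any trimming. The expected count of each gene and isoform was estimated by the authors with RSEM, per the file headers. The TPM of each gene was deposited by the authors and is scaled by effective length over all genes of a library. The share of each isoform in its gene was deposited by the authors as a percent. RSEM divides fragments between near-identical copies, so genes with processed pseudogenes or close paralogs, such as Eef1a1, Eif4a1 and Eif1, are less certain, and without a strand setting overlapping genes cannot be told apart.

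Expected counts were rounded (20.0% of nonzero values were not whole). They were not corrected for transcript length in the main fit. Eif3m, for example, had a mean of 87.4 TPM in old D1 and 71.7 TPM in young D1 libraries but a log2 fold change of -0.27. Genes were filtered with filterByExpr, scaled by TMM and fitted over all 16 libraries with edgeR 4.0.16 in R 4.3.3 (robust quasi-likelihood), with 1 mean per group and Benjamini-Hochberg adjustment over 13926 genes. The fit was also run on simulated counts. All groups of the simulation shared 1 spread per gene, so it does not show how the fit deals with the wider spread of old D1 libraries. DESeq2 1.42.0, limma 3.58.1 (voom with library weights, and log2(TPM + 1)), other scalings and filters, the compared groups alone, a trend over GC content and length, and leaving out each library served as alternatives. GENCODE names matched 37693 of the 39017 genes. Members called in any comparison, and Eef1a1, Eef1a2, Eef2, Eif4e, Eif4ebp1, Eif4ebp2, Eif2s1, Eif5a and Pabpc1 in any case, are given by library; other pathway genes are named where called. The members and lists were chosen with earlier results of these data known. Library numbers follow the order of deposit and pair nothing. No molecular identifiers are described, so counts may include amplification copies, and p-values measure the spread between these libraries. In the main fit each gene has 1 spread shared by the 4 groups. The median coefficient of variation over the members was 41.9% in old D1 and 20.3 to 26.4% in the other groups. Comparisons with old D1 libraries are thus judged partly on the tighter groups, and fewer members were called in the fit of the compared groups alone.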

Additional observations from a re-analysis of the deposited data

Results flagged for a closer look

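In 12 of 174 pairs of a member and a group, 6.9%, 1 library stood apart from the other 3 by a gap that took up most of the range of the group, past the critical value of Dixon's test. In 2 of them, both of Eif4ebp1, 3 libraries were at 0, so that any value above 0 stands apart by construction and the test says nothing; the other 10 were of 172 pairs, 5.81%, and chance alone gives this in about 1 of 20 groups. Of the 12, 3 were in old D1, 6 in young D1, 2 in old D2 and 1 in young D2 libraries. Among old D1 libraries, Eif5b was at 220.0 TPM in library 2 and Eif2b3 at 24.2 TPM in library 1, both highest, and Eif4ebp1 was at 0.6 TPM in library 4 and at 0 in the rest. Among young D1 libraries, Eif1 was lowest in library 3, at 1426 TPM, where Eif3f was highest, at 73.1 TPM. Eif2b4, at 25.7 TPM, and Eif4g1, at 97.9 TPM, were highest in library 2, Eif3g, at 187.1 TPM, in library 4 and Eif4ebp1, at 0.31 TPM, in library 1. Among old D2 libraries, Eif4e2 was highest in library 3, at 110.8 TPM, and Eef1a2 lowest in library 1, at 69.0 TPM. Eif4b was lowest in young D2 library 3, at 61.3 TPM. The age change of Eif5b differed between the neurons, by 1.72 on the log2 scale in the test of the difference itself.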

How the results depend on the processing

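No paired analysis was possible because the labels give no replicate numbers that the groups share. With age in D1 neurons, the count of higher members (5) was 3 in the fit of the compared groups alone and 3 once the trend over GC content and length was taken out, and that of lower members (7) was 1 in voom, 0 in the compared groups alone and 4 with the trend removed. Leaving out 1 library gave 3 to 6 higher and 3 to 8 lower, the extremes being 3 higher without young D1 library 1, 2 or 4 and 8 lower without old D1 library 3. In the difference of the age changes, DESeq2 called 3 higher and 1 lower, limma on log2(TPM + 1) 0 higher and the trend-removed fit 0 higher, and leaving out 1 library gave 1 to 2 higher and 0 to 1 lower. At 2 years, higher members numbered 2 in the compared groups alone and 2 with the trend removed. Lower members numbered 10 in DESeq2, 0 in voom, 8 in limma, 0 in the compared groups alone and 3 with the trend removed, and 0 to 8 when 1 library was left out. The causes were not tested. The share of all genes called is not given for these alternatives. Their counts therefore do not show whether the members moved with all genes or apart from them. With the trend removed, the sign turned for 12 of 43 members with age in D1 neurons and for 12 of 43 at 2 years, where Eef1a2 (0.094) had been called, and for 2 with age in D2 neurons, 13 in the difference and 6 at 42 days. With age these were Eef1a2 (0.98), Eef2 (0.17), Eif4e (-0.50), Eif2s1 (-0.43), Pabpc1 (-0.074), Eif5 (-0.04), Eif1b (0.39), Eif2b4 (0.56), Eif3g (0.68), Eif3i (0.35), Eif3l (0.15) and Eef1d (0.29). At 2 years the others were Eef2 (0.15), Eif4e (-0.29), Eif2s1 (-0.41), Pabpc1 (-0.15), Eef1a1 (-0.15), Eif5 (-0.08), Eif4g2 (-0.41), Eif1b (0.19), Eif2b4 (0.64), Eif3d (0.04) and Eif3g (0.28). Eif2s1 was at -0.005 in voom and between -0.027 and 0.34 with 1 library left out, and Pabpc1 at -0.021 with upper-quartile factors and between -0.082 and 0.24 with 1 library left out. The median log2 change of all genes, -0.06 with age in D1 neurons, was -0.38 in voom, and at 2 years it was -0.07, -0.40 in voom and -0.31 in limma. In the difference it was -0.11, -0.41 in voom, -0.22 in limma and -0.29 without a count filter. The counts in D2 neurons and at 42 days stayed at 0 in every alternative run.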
